A study of Homo sapiens with 24 samples.

Results

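The secreted WNT antagonists SFRP1, SFRP2, SFRP4, SFRP5, DKK1, DKK2, DKK3 and WIF1 were followed in HCT116 cells, a human colorectal carcinoma line. They were taken as every probe set whose only gene symbol in the platform's annotation is one of these 8 names. This gave 19 of the 41091 probe sets with 1 symbol: 4 for SFRP1, 2 for SFRP2, 2 for SFRP4, 1 for SFRP5, 1 for DKK1, 2 for DKK2, 6 for DKK3 and 1 for WIF1.

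WNT proteins signal by joining a Frizzled receptor to its co-receptor LRP5 or LRP6, which keeps beta-catenin from being destroyed and lets it act with TCF factors on target genes. SFRP proteins and WIF1 bind the WNT ligands outside the cell, whereas DKK1 and DKK2 bind LRP5 and LRP6 and use the Kremen proteins as co-receptors. DKK3 is a divergent member of its family that is not a typical LRP6 inhibitor. Promoters of several of these genes are known to be methylated in colon tumours, and HCT116 cells carry an activating beta-catenin mutation, which lies below the step at which the antagonists act.

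The study asked how inhibitors of DNMT1, the maintenance DNA methyltransferase, change gene expression. All cells came from 1 line obtained from ATCC, were kept in RPMI1640 with 5% FBS, and were exposed for 72 h to compound stocks in DMSO or to DMSO alone. The 4 DMSO arrays were compared with pairs of arrays for decitabine (DAC) at 5 µM and 120 nM, azacytidine (Aza) at 1500 nM and 150 nM, and 3 prodrugs. The prodrug G668684, whose titles hold the word ester, was given at 7 µM and 150 nM. The prodrug G669043, whose titles begin with Aza, was given at 1500 nM and 150 nM. For G669071, whose titles hold the word phos, the titles give 63 µM and 6 µM and the source names 120 nM and 6 nM, so the dose is not settled and the text speaks of a higher and a lower dose. No label says that replicates were separate cultures, so the p-values rest on the spread between arrays alone, and that spread may be technical.

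The values are log2 RMA intensities from Affymetrix HG-U133 Plus 2.0 arrays, and differences are log2 differences of group means with the SE from limma. A call means a p under 0.05 after Benjamini-Hochberg adjustment over all 41091 probe sets. Array medians lay between 6.76 and 6.85, and the 2 arrays of each treated group had a correlation of 0.992 to 0.998 over all probe sets. The DMSO arrays fell into pairs, replicates 1 and 2 (0.997) and replicates 3 and 4 (0.997), with 0.992 to 0.993 across the pairs, so member calls that are lost against replicates 1 and 2 alone are given with that value. The 12 markers of colonic epithelium ranged in DMSO from 6.78 for LGALS4 to 13.69 for KRT18, with a median of 8.86, all at or above log2 5. That level does not mark a cell type, since 10 of 10 neuronal markers (median 7.14, TUBB3 at 12.62) and 7 of 10 fibroblast markers (median 6.60, COL1A1 at 9.98) reached it too. As no detection calls came with the values, low levels have no settled zero: among the blood cell genes, which this line should lack, DMSO levels ran from 4.39 for PTPRC to 8.77 for HBB. Levels of different probe sets are not comparable, and a percentile below only places a probe set among the others. DNMT1 itself was called lower with DAC at 5 µM (-0.63), the higher dose of G669071 (-0.33) and G668684 at 7 µM (-0.60). The G669071 call was lost without its replicate 1 (adjusted p = 0.131).

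The RefSeq promoter table of the assembly GRCh38.p14 matched 5 of the 8 genes, SFRP2, SFRP4, SFRP5, DKK1 and WIF1. The 250 bases before the start site are printed for WIF1 and DKK1, which were called in most groups treated with DAC or with the prodrugs G669071 and G668684, and for SFRP2 and SFRP4, with 3 calls and no call. CpG dinucleotides, the sites that DNMT1 methylates, are in capitals, and each sequence runs 5′ to 3′ on the gene's strand.
WIF1 (GRCh38.p14, chr12:65121306-65121555, minus strand): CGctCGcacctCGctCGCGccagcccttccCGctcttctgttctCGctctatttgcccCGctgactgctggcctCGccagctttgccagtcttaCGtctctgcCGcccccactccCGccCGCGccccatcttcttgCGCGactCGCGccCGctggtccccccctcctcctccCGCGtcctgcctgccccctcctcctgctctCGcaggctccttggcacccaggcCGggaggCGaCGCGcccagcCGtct
DKK1 (GRCh38.p14, chr10:52314031-52314280, plus strand): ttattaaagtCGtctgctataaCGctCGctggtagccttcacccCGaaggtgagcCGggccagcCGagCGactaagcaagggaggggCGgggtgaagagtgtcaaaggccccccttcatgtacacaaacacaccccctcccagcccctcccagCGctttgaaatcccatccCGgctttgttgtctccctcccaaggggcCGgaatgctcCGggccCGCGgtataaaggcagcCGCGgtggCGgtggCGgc
SFRP2 (GRCh38.p14, chr4:153789084-153789333, minus strand): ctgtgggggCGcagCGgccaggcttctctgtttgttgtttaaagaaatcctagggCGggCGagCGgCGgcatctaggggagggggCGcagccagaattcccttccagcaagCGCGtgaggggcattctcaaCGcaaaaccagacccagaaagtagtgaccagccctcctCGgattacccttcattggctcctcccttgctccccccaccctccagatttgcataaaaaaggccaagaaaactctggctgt
SFRP4 (GRCh38.p14, chr7:37916818-37917067, minus strand): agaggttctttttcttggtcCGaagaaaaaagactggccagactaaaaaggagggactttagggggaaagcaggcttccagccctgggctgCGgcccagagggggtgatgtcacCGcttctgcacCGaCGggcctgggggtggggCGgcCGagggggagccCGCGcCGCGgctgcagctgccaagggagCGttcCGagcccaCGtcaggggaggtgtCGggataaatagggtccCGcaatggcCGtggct

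The WIF1 window held 27 CpGs, and 17.7% of the 35116 promoter windows of this length held at least as many. DKK1 had 18 CpGs, a count reached by 36.8% of windows, and SFRP4 had 17, reached by 39.0%. SFRP2 had 11, which is the median of all windows. The SFRP5 window, at chr10:97772000-97772249 on the minus strand, held 21 (30.2%). The core of TCF sites, CTTTG, searched on both strands as CTTTG and CAAAG, occurred 3 times before DKK1 and 1 time before WIF1, and 42.1% of all windows held it. It was not found in the windows of SFRP2, SFRP4 and SFRP5. These are matches of letters, and neither methylation nor factor binding was measured.

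Across the 10 comparisons with DMSO, probe sets of 6 of the 8 genes were called at least 1 time, and every call was higher than DMSO. At 5 µM DAC, 6 of the 19 probe sets were called (31.6%), while 24.3% of all 41091 probe sets were called and 13.1% were called higher, and no test was made of the gap. The 6 were WIF1, DKK1 and 1 probe set each of SFRP1, SFRP2, SFRP5 and DKK3. At 120 nM DAC 4 were called, against 17% of all probe sets in either direction and 8.99% higher. The higher dose of G669071 had 6 calls in 5 genes, with a background of 22.5% called and 11.8% higher. Its lower dose had 3, with a background of 10.5% and 5.68%. G668684 had 5 calls at 7 µM (background 24.3%, with 12.9% higher) and 4 at 150 nM (15.6%, with 7.62% higher).

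Aza at 1500 nM had 1 call, DKK1, among the 19 (5.26%), where 11.9% of all probe sets were called and 5.05% called higher. Aza at 150 nM (background 0.771%) and G669043 at 1500 nM (5.68%) and 150 nM (0.185%) had 0 calls in limma, with 0, 1 and 4 probe sets at an unadjusted p under 0.05. The total share of members called was thus near the background with DAC, G669071 and G668684, and the share called higher stood above it, at 31.6% against 13.1% for 5 µM DAC. The members were chosen with earlier results of these data known, so this gap cannot serve as a test of them. Of the member calls, those of SFRP1, SFRP2 and SFRP5 and those of DKK3 on 214247_s_at came from probe sets named _s_at, which can bind several transcripts. Both arrays lay above all 4 DMSO arrays for 7 and 6 of the 19 probe sets at the DAC doses (17.3% and 13.2% of all probe sets), 8 and 6 for G669071 (16.5% and 13.1%), and 7 and 4 for G668684 (16.5% and 12.5%). The counts were 4 for Aza at 1500 nM (12.6%) and 0 at 150 nM (8.79%), and 1 for G669043 at 1500 nM (9.83%) and 1 at 150 nM (10.1%). Leaving out names ending in _s_at, _x_at or _a_at kept 26777 probe sets, 7 of them members. Of these 7, 2 were called at each DAC dose, where 11.1% and 7.17% of the 26777 were called higher, 3 and 1 for G669071 (9.71% and 4.74%), and 2 at each G668684 dose (10.8% and 6.21%).

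**Figure D1:**
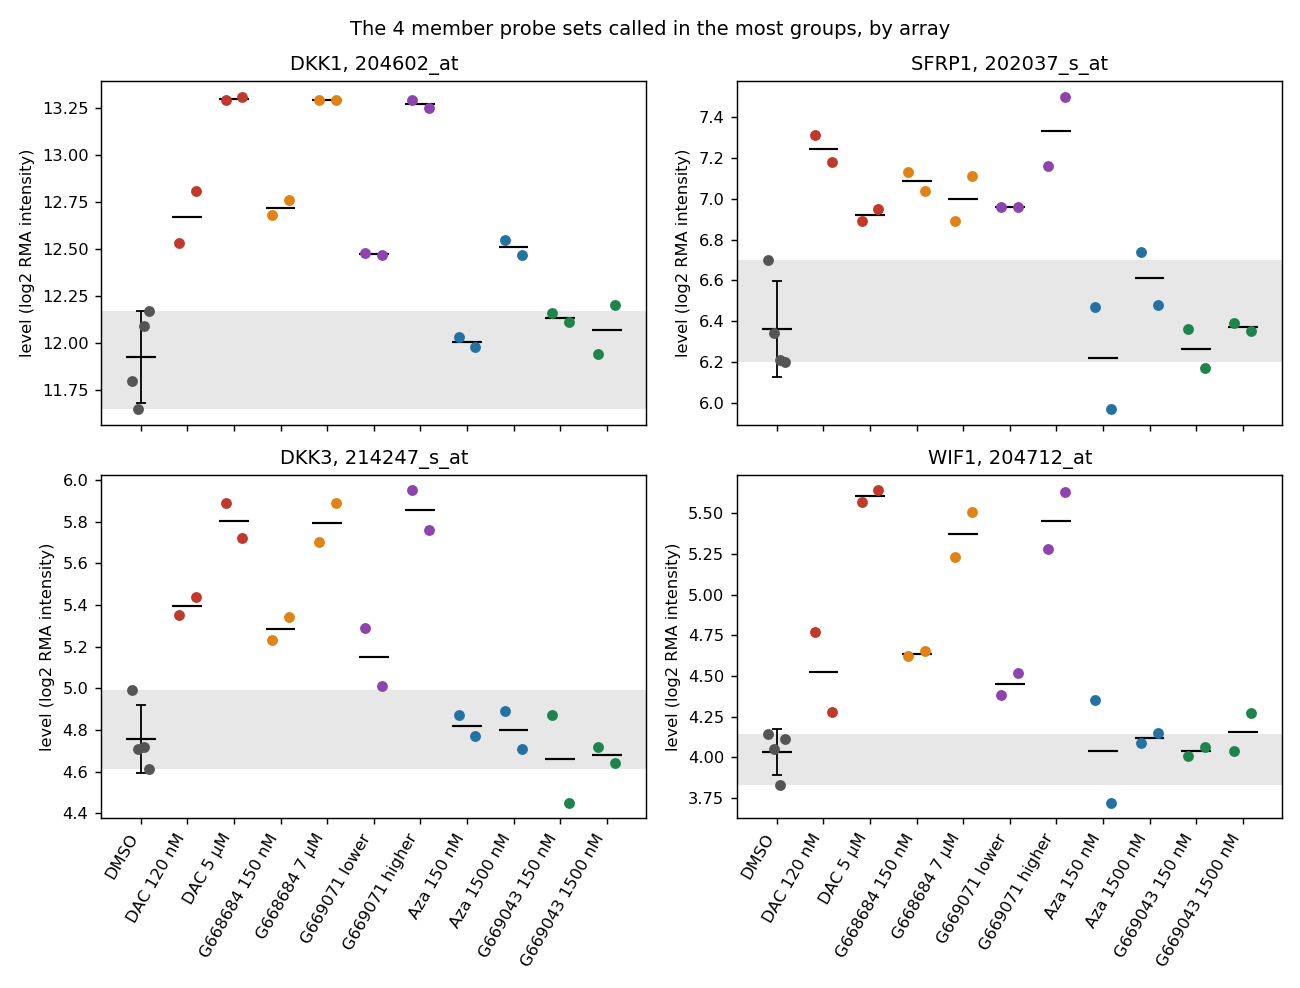
Log2 RMA intensity (vertical axes, 1 scale per panel) of the 4 member probe sets called in the most groups, in the 11 groups (horizontal axis). Points are arrays, horizontal lines are group means, the error bar is the SD of the 4 DMSO arrays, and the grey band is their range. WIF1 was between 3.83 and 4.14 in DMSO and between 5.57 and 5.64 at 5 µM DAC, while DKK1 moved from 11.65 to 12.17 in DMSO to 13.29 and 13.31.

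WIF1, a secreted protein that binds WNT ligands through its own WIF domain, had the largest difference among the members. In DMSO its probe set 204712_at read 4.14, 4.05, 3.83 and 4.11 in replicates 1 to 4, at the 7.05th percentile of all probe sets. DAC at 5 µM gave 5.57 and 5.64, and DAC at 120 nM gave 4.77 and 4.28. All 4 DAC arrays lay above all DMSO arrays, and the doses did not overlap.

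With G669071, WIF1 read 5.28 and 5.63 at the higher dose and 4.38 and 4.52 at the lower. With G668684 it read 5.23 and 5.51 at 7 µM and 4.62 and 4.65 at 150 nM. These prodrug arrays too lay above DMSO and were split by dose. Aza gave 4.09 and 4.15 at 1500 nM and 4.35 and 3.72 at 150 nM, and G669043 gave 4.04 and 4.27, then 4.01 and 4.06. All of these pairs overlapped the DMSO arrays.

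WIF1 rose by 1.57 ± 0.15 at 5 µM DAC (2.97-fold, adjusted p = 8.5e-08, 95% interval 1.25 to 1.89). The rises were 1.42 ± 0.15 for the higher dose of G669071 (adjusted p = 4.1e-07) and 1.34 ± 0.15 for 7 µM G668684 (adjusted p = 8.4e-07). At the lower doses the difference was 0.60 for G668684 (adjusted p = 0.00852), 0.49 for DAC (0.0294) and 0.42 for G669071 (0.0942, not called). The 3 high-dose calls held under all alternatives tried, but those at 150 nM G668684 and 120 nM DAC were lost without single arrays. Without DAC 120 nM replicate 1 the difference was 0.25 (adjusted p = 0.47), and against DMSO replicates 1 and 2 alone it was 0.43 (0.097). Without G668684 150 nM replicate 1 or 2 the difference stayed at 0.62 or 0.59, and its adjusted p became 0.0661 or 0.0688. Since the DMSO level lies where no detection is settled, the folds of WIF1 have no settled size.

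SFRP1, which carries a Frizzled-like cysteine-rich domain, had 4 probe sets that did not move alike. The calls were all on 202037_s_at. It read 6.70, 6.34, 6.21 and 6.20 in DMSO, 6.89 and 6.95 at 5 µM DAC, and 7.31 and 7.18 at 120 nM DAC. G669071 gave 7.16 and 7.50 at the higher dose and 6.96 for both arrays at the lower. G668684 gave 6.89 and 7.11 at 7 µM and 7.13 and 7.04 at 150 nM, so each array of these 6 groups lay above every DMSO array. Aza gave 6.74 and 6.48 at 1500 nM and 6.47 and 5.97 at 150 nM, and the 4 G669043 arrays lay between 6.17 and 6.39. These overlapped DMSO.

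The largest SFRP1 rise was 0.97 ± 0.14 with the higher dose of G669071 (1.96-fold, adjusted p = 2.4e-05), followed by 0.88 ± 0.14 at 120 nM DAC (adjusted p = 1.2e-04). SFRP1 rose by 0.72 at 150 nM G668684 (adjusted p = 0.00106) and by 0.64 at 7 µM (0.00177). At 5 µM DAC it rose by 0.56 (0.0055) and with the lower dose of G669071 by 0.60 (0.00797). It had no call between doses of a compound, with 0.37 for G669071 (adjusted p = 0.253) and -0.33 for DAC (0.265). The difference of the dose effects of WIF1 and SFRP1 was not tested.

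The other SFRP1 probe sets, 202035_s_at, 202036_s_at and 228413_s_at, stayed within 4.86 to 5.43, 6.08 to 6.88 and 6.22 to 6.79 over all 24 arrays and had no call, with lowest adjusted p-values of 0.0879, 0.0954 and 0.0996. The mean of the 4 probe sets differed from DMSO by 0.13 at 5 µM DAC (adjusted p = 0.18) and by 0.18 at 7 µM G668684 (0.0636), and neither was called. Against DMSO replicates 1 and 2 alone, the calls on 202037_s_at at 5 µM DAC (0.40, adjusted p = 0.0511) and the lower dose of G669071 (0.44, 0.0769) were lost. Calls on this probe set were also lost without single arrays. These were DAC 5 µM replicate 2 (0.53), G668684 7 µM replicate 2 (0.53) and either array of the lower dose of G669071 (0.60 each time).

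SFRP2, a close relative of SFRP1, was called on 223122_s_at in 3 groups by small amounts. Its DMSO arrays read 5.99, 6.23, 5.89 and 6.00. The treated arrays read 6.47 and 6.33 at 5 µM DAC, 6.35 and 6.34 at the higher dose of G669071, and 6.45 and 6.42 at 7 µM G668684, all above DMSO. SFRP2 rose by 0.41 ± 0.10 at 7 µM G668684 (1.33-fold, adjusted p = 0.00297), by 0.37 at 5 µM DAC (0.00615) and by 0.32 with G669071 (0.0199). The G668684 call held under all 18 alternatives, whereas that of G669071 was lost without either of its arrays (adjusted p = 0.123 and 0.111) and against DMSO replicates 1 and 2 alone (0.108). That of DAC was lost without DAC 5 µM replicate 1 (0.116). With G669043 this probe set read 5.80 and 5.71 at 1500 nM and 5.67 and 5.75 at 150 nM, below every DMSO array, and neither difference was called. Its second probe set, 223121_s_at, ranged from 4.99 to 5.46 and had no call.

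SFRP5, on 207468_s_at, was called at 5 µM DAC alone, with 6.30 and 6.15 against 6.05, 5.98, 5.98 and 5.72 in DMSO. The rise of 0.29 ± 0.10 (1.23-fold, adjusted p = 0.0276) was lost without DAC 5 µM replicate 1 (0.22, adjusted p = 0.268) and without DMSO replicate 4 (0.0756). With replicates 1 and 2 as the only DMSO arrays it was 0.21 (0.108). SFRP4, a further Frizzled-related protein, had no call on 204051_s_at, which ranged from 5.16 to 5.64, nor on 204052_s_at, from 3.34 to 3.76. The latter lay at percentile 2.3 in DMSO.

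DKK1, which removes LRP6 from WNT signalling and is itself known as a target of beta-catenin, was a member at a high level, at percentile 98.1 of all probe sets in DMSO. The DMSO arrays of 204602_at read 11.80, 11.65, 12.09 and 12.17. DAC gave 13.29 and 13.31 at 5 µM and 12.53 and 12.81 at 120 nM. G669071 gave 13.29 and 13.25 at the higher dose and 12.48 and 12.47 at the lower. The 3 high-dose groups thus lay within a narrow band, and no lower-dose array reached it.

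G668684 gave DKK1 levels of 13.29 on both 7 µM arrays and of 12.68 and 12.76 at 150 nM. Aza gave 12.55 and 12.47 at 1500 nM and 12.03 and 11.98 at 150 nM. G669043 gave 11.94 and 12.20 at 1500 nM and 12.16 and 12.11 at 150 nM. The 150 nM Aza arrays and 3 of the 4 G669043 arrays lay within the range of the DMSO arrays, the array at 12.20 lay just above it, and all other treated arrays lay above every DMSO array.

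DKK1 rose by 1.37 ± 0.11 at 5 µM DAC (2.59-fold, adjusted p = 2.8e-09, 95% interval 1.15 to 1.59), by 1.36 at 7 µM G668684 (3.2e-09) and by 1.34 with the higher dose of G669071 (4.4e-09). It rose by 0.79 at 150 nM G668684 (1.6e-05), by 0.74 at 120 nM DAC (2.9e-05) and by 0.55 with the lower dose of G669071 (0.00137). With 1500 nM Aza it rose by 0.58 ± 0.11 (1.50-fold, adjusted p = 7.0e-04). It was not called at 150 nM Aza (0.08, adjusted p = 0.887), 1500 nM G669043 (0.14, 0.573) or 150 nM G669043 (0.21, 0.333).

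The DMSO pairs bear on these last DKK1 values, since replicates 3 and 4 averaged 12.13 and replicates 1 and 2 averaged 11.73. Against replicates 1 and 2 alone, DKK1 was called higher with G669043 at 1500 nM (0.35, adjusted p = 0.0105) and at 150 nM (0.41, 0.00348). At 5 µM DAC the difference of DKK1 was 1.58 against the first pair and 1.17 against the second.

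DKK2, an LRP6 ligand that can inhibit or activate depending on its co-receptor, had no call. Its probe sets 219908_at and 224199_at ranged over the 24 arrays from 3.40 to 4.05 and from 3.76 to 4.13, at percentiles 4.43 and 6.42 in DMSO.

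DKK3 had 6 probe sets, and most of its calls came from 214247_s_at, at percentile 14.4 of all probe sets in DMSO. As for WIF1, folds from that level have no settled size. This probe set read 4.99, 4.71, 4.72 and 4.61 in DMSO, 5.89 and 5.72 at 5 µM DAC, and 5.35 and 5.44 at 120 nM DAC. G669071 gave 5.95 and 5.76 at the higher dose and 5.29 and 5.01 at the lower. G668684 gave 5.70 and 5.89 at 7 µM and 5.23 and 5.34 at 150 nM. All of these arrays lay above every DMSO array, the lowest, 5.01, by little, whereas the Aza and G669043 arrays, from 4.45 to 4.89, did not.

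DKK3 rose on 214247_s_at by 1.10 ± 0.12 with the higher dose of G669071 (2.14-fold, adjusted p = 6.9e-07), by 1.05 at 5 µM DAC (1.1e-06) and by 1.04 at 7 µM G668684 (1.3e-06). Lower doses gave 0.64 for DAC (7.8e-04), 0.53 for G668684 (0.00447) and 0.39 for G669071 (0.0451). The last was lost under 11 of 17 alternatives, including the omission of either of its arrays (adjusted p = 0.488 and 0.0578) and the use of DMSO replicates 1 and 2 alone (0.30, 0.208). The G668684 call was lost without its replicate 2 (0.0663).

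The second DKK3 probe set with a call, 230508_at, rose by 0.51 ± 0.14 with the higher dose of G669071, to 6.24 and 6.39 from 5.88, 6.07, 5.67 and 5.60 (adjusted p = 0.008). This was lost without replicate 2 of that dose (0.125) and against DMSO replicates 1 and 2 alone (0.34, 0.0783). The remaining 4, 202196_s_at, 207875_at, 221126_at and 221127_s_at, ranged from 3.03 to 5.05 and had no call. Averaged over its 6 probe sets, DKK3 differed from DMSO by 0.26 at 5 µM DAC, 0.29 at the higher dose of G669071 and 0.23 at 7 µM G668684. The calls at these doses and at 120 nM DAC held for the average. At 150 nM G668684 the average differed by 0.14 (adjusted p = 0.277) and at the lower dose of G669071 by 0.11 (0.433), and neither was called.

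**Figure D2:**
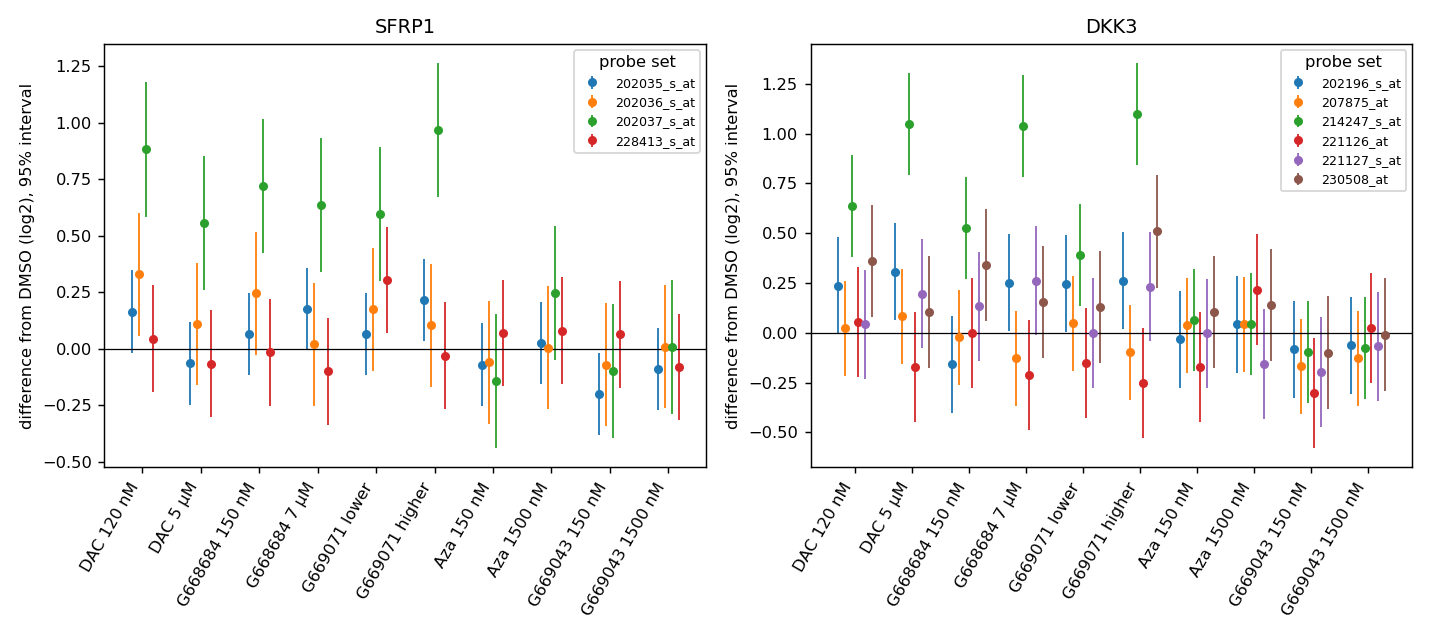
Log2 difference from DMSO (vertical axis) in the 10 treated groups (horizontal axis) for each probe set of SFRP1 and DKK3, with 1 colour per probe set and bars for the 95% interval. In the DAC, G669071 and G668684 groups the points of 202037_s_at and 214247_s_at lie above those of the gene's other probe sets, reaching 0.97 and 1.10 with the higher dose of G669071, and in the Aza and G669043 groups no probe set of either gene was called.

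**Figure D3:**
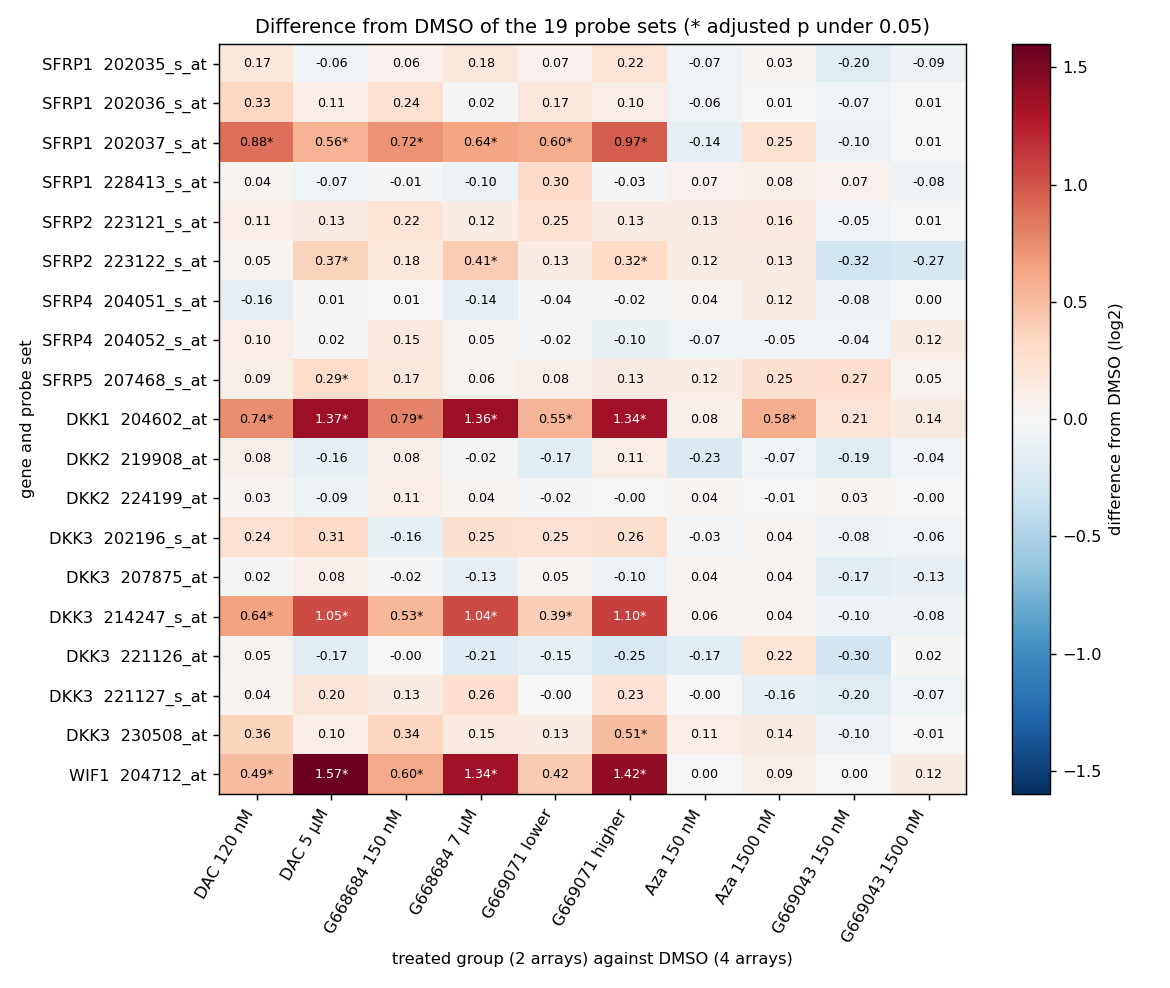
Log2 difference from DMSO of all 19 member probe sets (rows) in the 10 treated groups (columns), with the value printed in each cell, colour for its sign and size, and a star where it was called. Calls fall on 7 probe sets of 6 genes, all higher, and none falls on SFRP4 or DKK2.

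The dose contrasts were called on WIF1, DKK1 and DKK3 214247_s_at, each time higher at the higher dose. Between 5 µM and 120 nM DAC 2 probe sets were called (background 9.33%, with 5.6% higher), WIF1 by 1.08 ± 0.18 (adjusted p = 3.5e-04) and DKK1 by 0.63 ± 0.12 (0.00165). DKK3 was not called there (0.41, adjusted p = 0.0785). Between the doses of G669071 3 were called (background 5.46%, with 3.39% higher): WIF1 by 1.01 (0.00109), DKK1 by 0.80 (2.8e-04) and DKK3 by 0.71 (0.00373). The same 3 were called between the doses of G668684 (background 7.2%, with 4.98% higher), WIF1 by 0.73 (0.0117), DKK1 by 0.57 (0.00468) and DKK3 by 0.51 (0.0302). The 2 DKK3 dose calls and the G668684 dose calls of WIF1 and DKK1 were each lost without single arrays. For DKK1 that array was G668684 150 nM replicate 1, without which the difference was 0.53. Averaged over its 6 probe sets, DKK3 differed between doses by 0.18 for G669071 (adjusted p = 0.272) and 0.09 for G668684 (0.6), and neither was called.

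Between the Aza doses 1 probe set was called (background 3.33%, with 1.22% higher), DKK1, higher at 1500 nM by 0.51 ± 0.12 (adjusted p = 0.0226). That call was lost without any 1 of the 4 Aza arrays. Between the G669043 doses (background 2.12%) limma called 0, with 1 probe set at an unadjusted p under 0.05, and DKK1 differed by -0.07 (adjusted p = 0.884).

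Azacytidine and G669043 were given at equal doses, which allowed 2 comparisons of compounds and 1 of their dose effects, each adjusted over all probe sets. At 1500 nM limma called 0 members (background 1.02%), with 2 at an unadjusted p under 0.05. The DKK1 difference, G669043 minus Aza, was -0.44, with the 2 pairs of arrays not overlapping, a 95% interval of -0.69 to -0.19 and an adjusted p of 0.0977. At 150 nM 0 were called (background 0.0316%, 1 unadjusted), and the DKK1 difference was 0.13 with an interval of -0.12 to 0.38. The change of DKK1 with dose differed between the compounds by -0.57 ± 0.17 (interval -0.93 to -0.21, adjusted p = 0.264, background 0.221%, 0 called and 2 unadjusted).

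The 1500 nM difference of DKK1 was called when the spread came from the contrast's groups alone (adjusted p = 0.0132) and after a further quantile normalization (0.00843). It was also called with replicate numbers as a block (0.00569) and with the actin 3′ minus 5′ signal as a covariate (-0.67, 1.6e-04). The DKK1 dose difference was called with the contrast's groups alone, with the block and with the covariate (adjusted p = 0.0036, 0.0262 and 0.00134). The highest actin value of the 24 arrays, 0.34, was on G669043 1500 nM replicate 2. The alternatives, which include leaving that array out, gave DKK1 differences at 1500 nM between -0.67 and -0.31. The part of that array in the result was not tested further. For WIF1 the difference at 1500 nM was 0.04, with an interval of -0.33 to 0.40 that still allows a difference in either direction. DAC, G668684 and G669071 were not given at matched doses, so their values stand side by side only.

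As a description over the 24 arrays, which share compounds, doses and the DMSO group, WIF1, DKK1 and DKK3 214247_s_at varied together. Pearson's r was 0.901 for DKK1 and WIF1, 0.905 for DKK1 and DKK3, and 0.909 for DKK3 and WIF1. SFRP1 202037_s_at had an r of 0.824 with DKK3, 0.75 with DKK1 and 0.745 with WIF1. SFRP5 had an r of 0.123 to 0.236 with the other called members.

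Among 17678 genes with a mean of at least log2 5, those with the most similar pattern over the arrays were found for each called member from its probe set of the highest mean. For DKK1 they were CCN1 (r = 0.972), TERF2IP (0.97) and TIGAR (0.97). For WIF1 they were WNK3 (0.964), MAP7D2 (0.959) and INO80C (0.958), and for SFRP1 L1TD1 (0.941), HDGFL3 (0.933) and EZHIP (0.932). SFRP2 had C3orf70 (0.879), TM4SF1 (0.872) and ATG7 (0.86). DKK3, here through 230508_at, had PENK (0.853), SALL2 (0.808) and LINC00334 (0.801). SFRP5 had no gene above LINC01545 (0.738).

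The rest of the WNT pathway was read from lists of other antagonists and modulators, agonists, ligands, receptors, intracellular transducers and targets. Each gene was taken from its probe set of the highest mean. Of the 115 genes measured, 16 were called higher and 23 lower at 5 µM DAC, which is 33.9% against 28.4% of all 19775 genes. At 7 µM G668684 there were 16 higher and 24 lower (background 28.5%), and with the higher dose of G669071 15 and 18 (26.1%). At 120 nM DAC 15 were higher and 10 lower (19.4%), at 150 nM G668684 14 and 9 (18.3%), and with the lower dose of G669071 10 and 5 (12.9%). Aza at 1500 nM had 8 higher and 11 lower (14.5%), and G669043 at 1500 nM 8 and 6 (7.07%). At 150 nM, Aza had 1 in each direction (1.05%) and G669043 had 1 higher (0.278%).

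Among 17 other antagonists and modulators, which include the receptors ROR1, ROR2 and PTK7, 2 were called higher and 1 lower at 5 µM DAC. That is 17.6%, against 28.4% of all genes. At most 3 were called higher in any group, and all calls lower were of ROR1 or ROR2. DKK4, the remaining Dickkopf inhibitor of LRP6, rose in 5 of 10 groups by 0.42 to 0.79. SOSTDC1, which binds LRP6 and BMPs, rose in 5 by 0.37 to 0.58. SERPINF1, a secreted serpin also described as an LRP6 inhibitor, rose in 6 by 0.42 to 0.70. ROR2, a receptor for WNT5A, fell in 3, to -0.57 at 5 µM DAC. With Aza and G669043 no gene of this list was called, where 14.5% and 7.07% of all genes were called at 1500 nM. None of the 5 agonists, the R-spondins and norrin, was called in any group, where at most 28.5% of all genes were called.

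Among 18 ligand genes, 3 were called higher and 3 lower at 5 µM DAC, which is 33.3% against 28.4% of all genes. WNT16 fell in 8 groups, with differences from -0.63 to -0.40, the largest at 1500 nM Aza (adjusted p = 2.0e-05). WLS, which carries WNT proteins to the cell surface, rose by 0.79 at 5 µM DAC (8.4e-05). WNT9A rose in 5 groups, by 0.66 at 7 µM G668684 (3.1e-04), on 1 of its 2 probe sets. WNT7A rose in 1 group, by 0.35 at 5 µM DAC (0.0107), which was lost without DAC 5 µM replicate 2 (0.305).

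Receptors were called mainly lower: 2 higher and 9 lower of 20 at 5 µM DAC, 3 and 9 at 7 µM G668684, and 2 and 7 with the higher dose of G669071. Of all genes, 16.1% were called higher and 12.3% lower in the first of these groups, 15.7% and 12.8% in the second, and 14.1% and 12% in the third. Their median difference was -0.23, -0.19 and -0.19 in these groups, where that of all genes was -0.05, -0.04 and -0.04. FZD3, a Frizzled WNT receptor, fell in 9 of 10 groups, to -0.96 with the higher dose of G669071 (adjusted p = 2.1e-08), on all 4 of its probe sets there. FZD5 rose in 7, by 0.67 in the same group (1.9e-04). The FZD3 call at 150 nM Aza (-0.45) was lost without single arrays. ZNRF3, a ubiquitin ligase that removes Frizzled receptors, fell in 4, to -0.61 at 7 µM G668684 (7.3e-05).

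Of the receptors that DKK proteins bind, KREMEN1 and KREMEN2 had no call in any group. LRP5 had none on its probe set of the highest mean, although its other probe set was called lower at 7 µM G668684 and at 1500 nM Aza. LRP6, on its probe set of the highest mean, fell at 5 µM DAC (-0.44, adjusted p = 0.00345), 7 µM G668684 (-0.59, 1.8e-04) and 1500 nM Aza (-0.90, 6.6e-06), each time on that 1 of its 3 probe sets alone. The other 2 had small differences above 0 at 7 µM G668684, and 1 or the other was called higher at 120 nM DAC and at both doses of G669071. CKAP4, a further gene of the receptor list, was called lower at 5 µM DAC (-0.38) and 7 µM G668684 (-0.34). It was also called lower with the higher dose of G669071 (-0.295). These genes, AXIN2, APC and CTNNB1 were picked for their role after values were seen, and LRP6 also falls under the naming rule.

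Inside the cell, 2 of 30 transducers were called higher and 6 lower at 5 µM DAC and at 7 µM G668684. That is 26.7% in each, near the 28.4% and 28.5% of all genes. TCF7L1, a TCF factor that often represses, fell in 4 groups, to -0.70 at 7 µM G668684 (2.2e-06). TCF7L2, the main TCF factor of colon epithelium, fell in 4, to -0.51 at 1500 nM Aza (0.00185). The tankyrase TNKS2, which promotes AXIN turnover, rose in 4, by 0.68 at 5 µM DAC (2.9e-04), whereas TNKS fell in 6, to -0.41 with the lower dose of G669071, a value that was -0.09 over its probe sets and then not called (0.376). CTNNB1, the beta-catenin gene, and APC had no call on the probe set of the highest mean. Among their other probe sets, 1 of CTNNB1 was called lower at 1500 nM Aza and 1 of APC at 5 µM DAC.

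Targets of beta-catenin were called in both directions, 7 higher and 6 lower of 31 at 5 µM DAC, with a median of -0.03 against -0.05 for all genes. That is 41.9% called, where 28.4% of all genes were called, 16.1% higher and 12.3% lower. At 150 nM G668684 8 were higher and 4 lower, with a median of 0.04. The share called was 38.7% there, against 18.3% of all genes, and no test was made of these gaps. JUN rose in 8 groups, by 1.59 ± 0.11 with the higher dose of G669071 (8.8e-10), on all 4 of its probe sets. BAMBI, a TGF-beta pseudoreceptor, rose in 8, by 1.29 at 120 nM DAC (5.9e-09), and CCND1, a cyclin of the G1 phase, rose in 8, by 0.84 there (4.9e-07). VEGFA fell in 7, to -0.86 at 1500 nM Aza (3.2e-04).

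AXIN2, the feedback inhibitor often used as a readout of WNT signalling, rose by 0.69 at 120 nM DAC (adjusted p = 7.6e-04), 0.61 at 150 nM G668684 (0.00253), and 0.57 and 0.44 with the higher and lower doses of G669071 (0.00276 and 0.0386). AXIN2 was not called at 5 µM DAC (0.31, 0.0999) or 7 µM G668684 (0.35, 0.0643). At those 2 doses 1 of the 4 AXIN2 probe sets was called higher, but not the one with the highest mean used here. DKK1 and WIF1 had their largest differences at these doses and with the higher dose of G669071, where AXIN2 was called. At 1500 nM G669043 AXIN2 differed by 0.44 (adjusted p = 0.056) and was not called. Between doses AXIN2 was not called for any compound. The differences were -0.38 for 5 µM minus 120 nM DAC (adjusted p = 0.142) and -0.27 for 7 µM minus 150 nM G668684 (0.394). For the higher minus the lower dose they were 0.135 for G669071 (0.734), 0.12 for Aza (0.788) and 0.32 for G669043 (0.359).

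**Figure D4:**
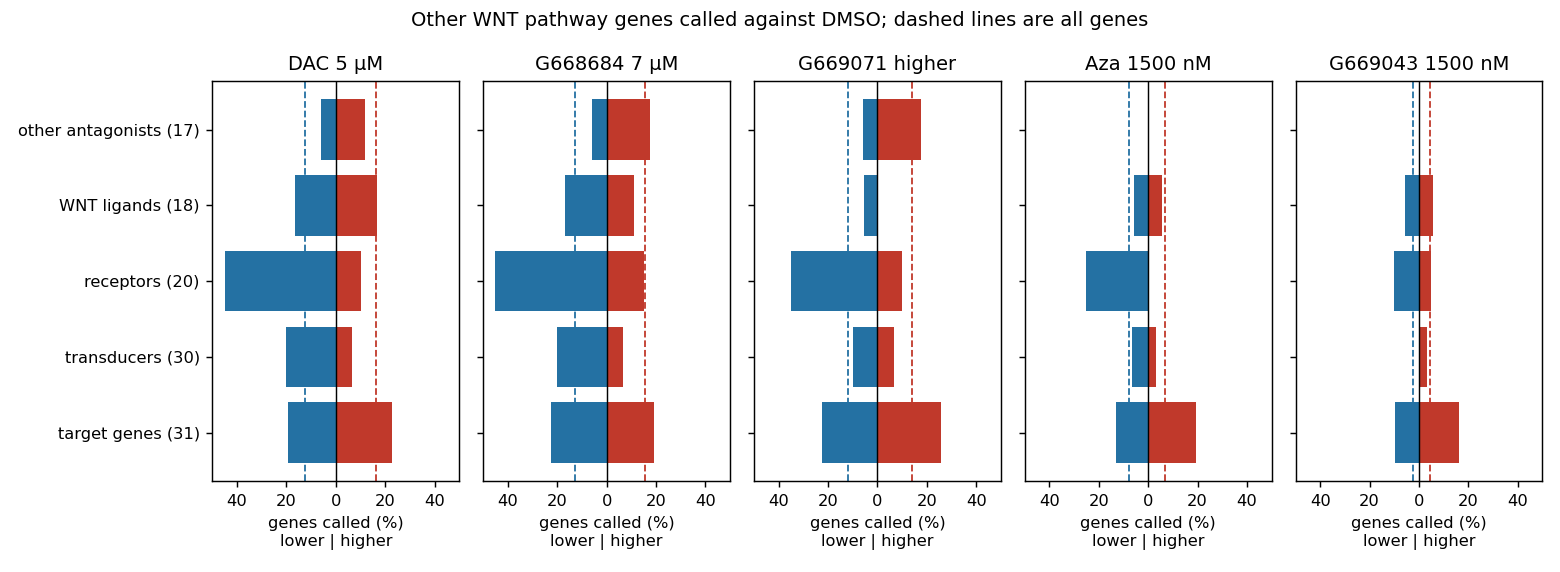
Percent of the measured genes of 5 WNT pathway lists called higher (right, red) and lower (left, blue) against DMSO in the higher-dose group of each compound, with dashed lines at the percent of all genes. At 5 µM DAC 9 of 20 receptors were called lower and 2 higher, while 7 of 31 targets were called higher and 6 lower.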

How the data were processed

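Gene expression was measured in HCT116 cells with 1 array per sample, in 4 DMSO samples and 10 treated pairs. Per the submitters' processing notes the authors ran RMA with Affymetrix Expression Console 1.1. The deposited table holds linear intensity for 54675 probe sets, and all log2 values were computed here from the deposited intensity. No source used here gives the array's genome build. Names came from the platform's probe table (41091 probe sets with 1 symbol, 1801 with several, 11721 not named, 62 controls), and 41037 gene numbers matched the RefSeq table of GRCh38.p14, where 0 symbols differed.

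A model with 1 mean for each group was fitted over the 24 arrays and 41091 probe sets with limma 3.58.1 in R 4.3.3 (lmFit, eBayes with an intensity trend, 13 residual and 7.26 prior degrees of freedom). No filter on low values was used, since it would keep a low gene only through the group where it is high: at log2 5 on at least 2 arrays, 12 of the 19 member probe sets pass, WIF1 and DKK3 214247_s_at only through treated arrays. Calls were 2-sided at a Benjamini-Hochberg adjusted p under 0.05 within each of 18 contrasts. Precision is limited by how few arrays there are, and the median 95% interval against DMSO reached 0.218 to each side. Errors are SEs for differences and SDs for levels.

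The members and gene lists were chosen with earlier results of these data known. Named were all member probe sets, up to 4 genes per WNT list with the largest called difference and a mean of at least log2 6, the 3 genes most correlated with each called member among those with a mean of at least log2 5, and DNMT1. The code was tested on simulated data. No set test was run. Replicate numbers showed no pairing common to all treated groups. Deviations of replicate 1 correlated between pairs of treated groups from -0.348 to 0.56 (median 0.01), above 0.1 in 15 of 45 pairs. A pairing within some of the groups was not tested. Alternatives covered the normalization, a filter on low values, probe set choice, the trend, the DMSO pairs, single arrays, a replicate block, an actin covariate and the threshold. Python 3.11.15 with matplotlib 3.10.9 and pandas 2.3.3 drew the figures.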

Additional observations from a re-analysis of the deposited data

Results flagged for a closer look

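DKK3 on 221126_at was tested with the other member probe sets for an array far from the rest of its group, which was possible in DMSO alone, the group with 4 arrays. DMSO replicate 2 read 4.46, while replicates 1, 3 and 4 read 4.81, 4.82 and 4.78. Its gap to the nearest array was 0.888 of the range of the group, above Dixon's 95% critical value for a group of 4. Chance gives such a flag in about 5% of groups, and 19 probe sets were tested. This probe set had no call in any comparison.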

How the results depend on the processing

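Of 100 single differences from the text, 61 called and 39 not, 1720 results under alternatives kept the call in 1632 cases, lost it in 74, gained it in 14 and reversed in 0. A filter on low values moved no count by over 1.5 times. With the _s_at, _x_at and _a_at probe sets left out, members called against DMSO were 2 for DAC at 5 µM and 2 at 120 nM, 3 and 1 for G669071, and 2 and 2 for G668684, and pathway genes were 1 for Aza at 150 nM and 9 and 0 for G669043 at 1500 and 150 nM. For G669043 at 150 nM the pathway count of 1 became 2 with 1 probe set per gene, with mean probe sets or with centred medians, and 0 with a further quantile normalization, without the trend, at an adjusted p under 0.01 or against DMSO replicates 3 and 4. The 1 call of DKK1 between Aza doses became 0 with centred medians. The comparison of G669043 with Aza at 1500 nM had 1 member call after quantile normalization.

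When the spread came from the contrast's groups alone, pathway counts were 24 and 9 for DAC, 14 for G668684 at 150 nM, 11 and 0 for Aza, and 5 and 0 for G669043. Member counts were then 6 for the G669071 doses, 2 for the Aza doses, and 1 each for G669043 against Aza at 1500 nM, at 150 nM and in dose effect. With the replicate block, members called were 1 for the lower dose of G669071 and 2 and 4 for G669043 at 1500 and 150 nM. They were then 2 for G669043 against Aza at 1500 nM and 1 for the dose effects. Pathway counts under the block were 10 for Aza and 29 for G669043 at 150 nM. Only DMSO has replicates 3 and 4, so the block compares with replicates 1 and 2. Those 2 alone gave 1, 2 and 4 member calls in the first 3 of these, and 8 and 28 pathway calls. In the G669043 groups SFRP2 223122_s_at was then lower and DKK1 higher at both doses, and DKK3 207875_at and 221127_s_at lower at 150 nM. DMSO replicates 3 and 4 alone gave 29 pathway calls for the lower dose of G669071, 4 for Aza at 150 nM and 3 member calls for Aza at 1500 nM (SFRP1, SFRP5 and DKK1).

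With the actin covariate, pathway counts were 23 for the lower dose of G669071, 6 for Aza and 6 for G669043 at 150 nM, and members 1 for G669043 against Aza at 1500 nM and 1 for the dose effects. At an adjusted p under 0.01, pathway counts were 24 for DAC at 5 µM and 9 for G669043 at 1500 nM, and member counts 1 for the G668684 doses and 0 for the Aza doses. The causes were not tested.

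Leaving out 1 array at a time, member calls ranged from 4 to 6 for DAC at 5 µM, 3 to 5 at 120 nM, 4 to 6 and 1 to 4 for G669071, 4 to 5 and 3 to 6 for G668684, and stayed at 1 for Aza at 1500 nM and 0 for Aza at 150 nM and both G669043 groups. Between doses they were 2 to 3 for DAC, 2 to 3 for G669071, 1 to 2 for G668684 and 0 for Aza. Pathway calls ranged from 23 to 38 and 18 to 28 for DAC, 20 to 35 and 9 to 20 for G669071, 26 to 41 and 17 to 25 for G668684, 12 to 20 and 0 to 3 for Aza, and 6 to 14 and 0 to 6 for G669043. The lowest member counts against DMSO came, for each of these groups, without DAC 5 µM replicate 1, without DAC 120 nM replicate 1 or DMSO replicate 3, without replicate 2 of the higher dose of G669071 or of 7 µM G668684, and without either array of the lower dose of G669071 or of 150 nM G668684.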

Other observations

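Some beta-catenin targets outside the naming rule, picked after their values were seen, were called in 4 to 10 of the 10 groups. SOX9, a transcription factor of intestinal crypt cells, rose in 10 of 10 groups by 0.43 to 0.80. Its calls at 150 nM Aza (0.47) and 150 nM G669043 (0.43) were lost without single arrays. ETS2, a transcription factor, rose in 8 by 0.40 to 0.72. MYC was called lower in 8, with differences from -0.59 to -0.21, and BIRC5, an inhibitor of apoptosis that is high in dividing cells, in 4, from -0.71 to -0.21. FOSL1, an AP-1 subunit, was lower in 4, from -0.51 to -0.38, while JUN, its AP-1 partner, was higher in 8.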
